A study of Mus musculus with 6 samples.

Results

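The genes described here are 10 protein-coding neighbours of Tug1 on mouse chromosome 11: Drg1, Patz1, Pik3ip1, Limk2, Rnf185, Pla2g3, Inpp5j, Selenom and Smtn on one side of it and Morc2a on the other. All gene probes designed to a RefSeq transcript of these genes were taken, which gave 12 of the 39429 gene probes on the array. Of the 10 genes, 8 had a single probe, and Smtn and Pla2g3 had 2 each. In a RefSeq list of mouse genes ordered by position, Morc2a was the next gene after Tug1, and Smtn lay 6 places before it, with Selenom, Inpp5j, Pla2g3, Rnf185, Limk2, Pik3ip1, Patz1 and Drg1 farther out in that order, up to 19 places away.

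The RNA came from a mouse podocyte line, cells of the kidney's filtration barrier whose foot processes cover the glomerular capillaries, and was hybridised to 1-colour Agilent arrays with the dye Cy3. All cells carried a temperature-sensitive SV40 T antigen, which makes their growth conditional on temperature, were grown at 33 °C and were then differentiated at 37 °C for 10 days. The 6 arrays form 3 groups of 2: shTug1 clone 2 and shTug1 clone 3, which are separate clones carrying a lentiviral pGIPZ hairpin against Tug1, and shControl, cells that carry the scrambled hairpin from the same vector. Each shTug1 group is thus 1 clone, each pair is described as biological replicates, and cells without a hairpin were not analysed here. The comparisons ask whether genes around Tug1 differ between podocytes with the Tug1 hairpin and those with the control hairpin, for both clones together and for each.

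Tug1 is a long noncoding RNA whose gene shares a start region with Morc2a, transcribed from the opposite strand. A hairpin acts on RNA after transcription, so neighbouring genes are often examined beside the targeted RNA as a check on local effects. The neighbours have no common function: they include a cytoskeletal protein of contractile cells, a kinase of actin regulation, regulators of phosphoinositide signalling, a secreted phospholipase, nuclear factors, a GTPase and proteins of the endoplasmic reticulum.

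The upstream windows of Tug1, of Morc2a, which faces it, and of Smtn are shown as sequences next to annotated starts. Smtn is included because 1 of its 2 probes had the largest rise of the neighbours in the mean of the clones. For Smtn 1 start was listed, and whether the transcript of either probe begins there was not analysed here. Each window is the 250 bases before the RefSeq start in GRCm38.p6, written 5′ to 3′ on the strand of its gene. The GC box (GGGCGG, or CCGCCC for the other strand) is in capitals. The Tug1 window lies at chr11:3648815-3649064 on the minus strand, the Morc2a window at chr11:3649187-3649436 on the plus strand, before the farthest upstream of its 2 starts, and the Smtn window at chr11:3539293-3539542 on the minus strand.
Tug1: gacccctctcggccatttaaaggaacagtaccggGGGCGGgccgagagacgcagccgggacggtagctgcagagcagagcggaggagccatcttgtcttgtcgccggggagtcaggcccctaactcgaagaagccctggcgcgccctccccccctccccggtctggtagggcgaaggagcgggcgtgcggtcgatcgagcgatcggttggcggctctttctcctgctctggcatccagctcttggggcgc
Morc2a: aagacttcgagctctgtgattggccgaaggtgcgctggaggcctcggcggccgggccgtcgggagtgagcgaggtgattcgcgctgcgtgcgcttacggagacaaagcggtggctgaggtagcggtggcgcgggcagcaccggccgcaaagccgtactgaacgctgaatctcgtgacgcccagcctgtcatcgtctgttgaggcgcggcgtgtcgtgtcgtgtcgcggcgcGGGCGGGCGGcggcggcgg
Smtn: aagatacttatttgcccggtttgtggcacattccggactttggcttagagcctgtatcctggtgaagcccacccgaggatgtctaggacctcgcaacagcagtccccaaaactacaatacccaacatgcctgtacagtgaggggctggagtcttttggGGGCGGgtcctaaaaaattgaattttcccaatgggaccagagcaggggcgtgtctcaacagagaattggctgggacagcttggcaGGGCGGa
The Tug1 and Morc2a windows are 122 bases apart and run away from each other, and both are rich in G and C, at 67.6% in the Tug1 window and 69.6% in the Morc2a window, against a median of 52.4% over all 32851 RefSeq promoters in the table. The Tug1 window held 24 CpG and the Morc2a window 39, against a median of 6. The Smtn window was closer to the typical promoter, with 53.2% G and C and 7 CpG. The Morc2a window held 2 GC boxes, which overlap each other, the Smtn window 2 and the Tug1 window 1. Of the 10 neighbours, 7 had an entry in the table, and Drg1, Pla2g3 and Inpp5j had none. A GC box was present in 5 of the 7 and in 32.7% of all promoters. A CCAAT box (CCAAT or ATTGG) was present in 3 of the 7 and in 33.9% of all, and TATAAA or TTTATA in 1 of the 7, Selenom, and in 12.4% of all. These matches describe letters in a window and are not binding sites.

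Values below are log2 of the processed intensity minus the 75th percentile of the gene spots of the same array, called the level, and a difference of levels is a log2 fold change. Across the arrays the 75th percentile was 1055 and 949.3 in clone 2, 569.2 and 831.6 in clone 3, and 324.3 and 363.3 in control, and 58.5% to 68.4% of gene spots were well above background. The median probe was therefore lower by 0.57 in the mean of the clones than in control, and each change has to be read against that shift. Replicate arrays correlated at 0.981 in clone 2, 0.989 in clone 3 and 0.961 in control, and the second control array correlated at 0.966 with a clone 3 array. The control arrays were scanned in 1 run and the 4 arrays labelled shTug1 in the other, so scan, slide and hairpin cannot be told apart. The number of arrays limits the precision, and so does the small number of clones. The p-values below rest on the spread between arrays of a group, not on that between clones.

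Tug1 itself went against the label in clone 2 and was not shown to differ from control in clone 3. Its probe A_52_P599162, the only one well above background on every array, had a level of −1.86 and −1.88 in clone 2, −3.10 and −3.23 in clone 3, and −2.88 and −2.49 in control. The clone 2 arrays lay above both controls and the clone 3 arrays below both. The log2 fold change was 0.16 for the mean of the clones (limma, adjusted p = 0.654), 0.81 for clone 2 (adjusted p = 0.0823) and −0.48 for clone 3 (adjusted p = 0.329), so no comparison with control passed in the main setting. Under the alternatives clone 2 kept its sign, at 0.09 to 2.36, and passed in some of them. A second probe, A_51_P119401, printed in 10 spots, was well above background on 2 clone 2 arrays, 1 clone 3 array and 0 control arrays, and was at least 2.79-fold higher in clone 2 (limma, adjusted p = 0.0172). It entered the test only through clone 2, where it is high, and that call ended with normexp background correction, at 0.26 (adjusted p = 0.385), without shControl replicate 1 (adjusted p = 0.0735) and without shControl replicate 2 (adjusted p = 0.052). The third probe was never well above background. The groups are therefore called arrays labelled shTug1 where a direction is drawn. The position of the hairpin's target and of the probes was not analysed here, and a probe beside the part that a hairpin lowers would not check it.

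The cell type labels were checked with marker genes. Of 8 podocyte markers, 7 or 8 were well above background on each array, with Podxl, a sialomucin of the foot process, above it on 1 clone 2 array only. The summed processed intensity of that list was 19059 and 17178 in clone 2, 6158 and 13492 in clone 3, and 10567 and 11395 in control. The mesangial and smooth muscle list, dominated by the actin gene Acta2, summed to 222671 and 209970 in clone 2, 179649 and 195585 in clone 3, and 177980 and 203423 in control. Desmin (Des) was nowhere well above background and smooth muscle myosin (Myh11) was on 1 clone 3 array. Endothelial markers summed to 685.8 to 999.6 on the arrays labelled shTug1 and to 511.3 and 791.5 in control, tubular markers to 2602 to 5327 on the arrays labelled shTug1 and to 1716 and 3455 in control, and immune markers to 123.1 to 185.2 on the arrays labelled shTug1 and to 77 and 106.9 in control. These sums, of which Cd2ap was the largest share for podocytes, are not scaled between arrays. On the level scale the lists were lower in the mean of the clones, where 27.6% of all probes fell (limma). Of 7 podocyte markers tested 4 fell: Wt1, Synpo, Cd2ap and Lmx1b, at −1.33, −1.25, −1.01 and −1.65. Both mesangial markers tested fell, as did 1 of 2 endothelial and 2 of 4 tubular markers, and neither immune marker passed. The list medians were −1.15, −1.04, −0.69, −1.16 and −0.39 in that order, against −0.57 over all probes. After quantile normalization 2 podocyte markers (Wt1 and Lmx1b) and 2 tubular markers fell, where 13.5% of all probes fell. No mesangial, endothelial or immune marker did. Their part in the results below was not tested, and in bulk RNA fewer cells of a type and less RNA per cell cannot be told apart.

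Across the neighbours, more probes fell than rose, in a comparison where that held for all probes. Taking both clones together against control, 2 of the 11 member probes tested rose, where 11.8% of all 25544 probes tested rose, and 6 fell, where 27.6% of all probes fell. The median log2 fold change was −1.37 over the 11 probes and −0.57 over all probes, and 4 of the 11 lay above the median of all. The 2 probes that rose were Smtn A_51_P479786 and Drg1, and those that fell were Pla2g3, Inpp5j, Limk2, Pik3ip1, Rnf185 and the other Smtn probe. The fifth and 95th percentiles of all probes, −1.78 and 2.16, give the range that most probes kept within: Pla2g3 at −1.98 and Inpp5j at −1.94 were below it and Smtn A_51_P479786 at 2.39 was above it. Most of these 6 calls, like most calls over all probes, needed both clone 3 arrays, while the values moved little. Without clone 3 replicate 1 the 6 ran from −1.42 for Smtn A_55_P2065824 to −2.01 for Pla2g3. Without replicate 2 they ran from −1.31 to −1.95 for the same probes. Patz1 was dim in control, and its fitted value of 0.83 and its lower bound of 0.10 both lay above the member median. Placing it at the bound therefore could not move that median.

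**Figure D1:**
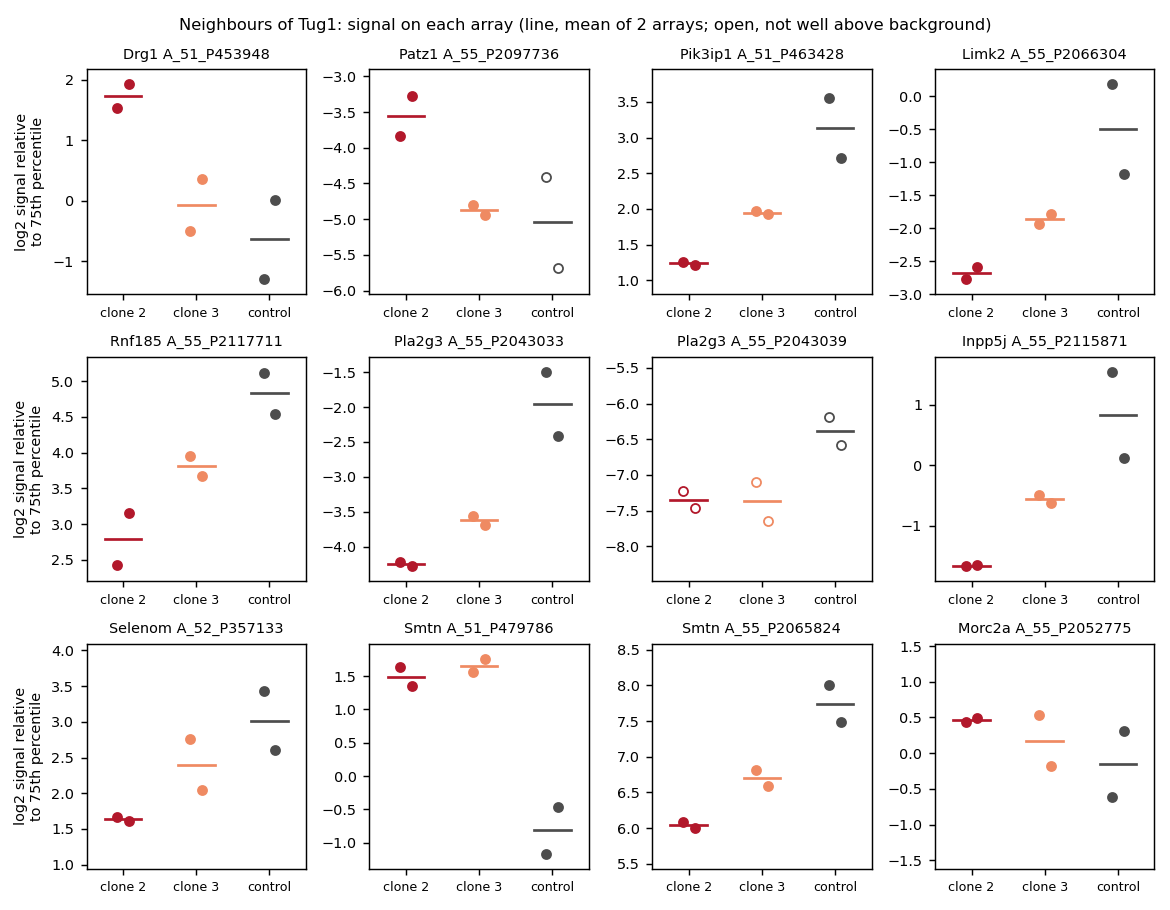
Level (log2 processed intensity relative to the 75th percentile of the array) of each neighbour probe on every array, with clone 2, clone 3 and control from left to right. Points are arrays, lines are means of 2 arrays and open points are not well above background. Smtn A_51_P479786 stood at 1.35 to 1.76 on the 4 arrays labelled shTug1, above control at −1.17 and −0.46, while the other Smtn probe stood at 6.01 to 6.81, below control at 8.0 and 7.48.

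Smtn gave the largest rise among the neighbours in the mean of the clones, on 1 of its 2 probes, while the other probe fell. Smtn encodes smoothelin, an actin-associated protein of contractile smooth muscle cells. Probe A_51_P479786 had processed intensities of 3280 and 2416 in clone 2, 1673 and 2812 in clone 3, and 145 and 264 in control. The corresponding levels were 1.64 and 1.35 in clone 2, 1.56 and 1.76 in clone 3, and −1.17 and −0.46 in control. All 4 arrays labelled shTug1 lay above both control arrays on either scale. The log2 fold change was 2.39 for the mean of the clones (SE 0.33, limma adjusted p = 0.00816), 2.30 for clone 2 (SE 0.38, adjusted p = 0.00981) and 2.47 for clone 3 (SE 0.38, adjusted p = 0.0259). Among the 11 tested, it was the only member probe that passed upward in clone 3. The clones were close on it: clone 3 minus clone 2 was 0.16, with a 95% confidence interval of −0.72 to 1.05.

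The second Smtn probe, A_55_P2065824, designed to another RefSeq transcript, was among the brightest on the array, above 98% of the probes tested by mean level. Its processed intensity was 71871 and 61092 in clone 2, 64013 and 79996 in clone 3, and 83205 and 64971 in control, so that the groups overlapped before scaling. Its level was 6.09 and 6.01 in clone 2, 6.81 and 6.59 in clone 3, and 8.0 and 7.48 in control, and after scaling the groups did not overlap. The log2 fold change was −1.37 for the mean of the clones (SE 0.31, limma adjusted p = 0.0183), −1.69 for clone 2 (adjusted p = 0.0153) and −1.04 for clone 3 (adjusted p = 0.0895). After quantile normalization, which gives every array the same distribution, it was −0.28 (adjusted p = 0.28) for the mean of the clones, and without any scaling −0.09 (adjusted p = 0.868).

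A constant scale between arrays cancels in the difference between the 2 Smtn probes of an array, although a shift that depends on brightness does not. The log2 signal of A_51_P479786 minus that of A_55_P2065824 was −4.45 and −4.66 in clone 2, −5.26 and −4.83 in clone 3, and −9.17 and −7.94 in control. The groups did not overlap, and the difference was larger by 3.76 on the log2 scale in the mean of the clones, a 13.5-fold change in the ratio of the probes (4.00 in clone 2 and 3.51 in clone 3). After quantile normalization it was larger by 2.83, a 7.13-fold change. With each array left out the fold ran from 8.82 without shControl replicate 1 to 20.65 without shControl replicate 2. This is a description of 6 arrays: it shows that the probes changed unequally, and says nothing of which transcripts each detects. The relatives Smtnl2 and Smtnl1 both fell in the mean comparison, where 27.6% of all probes fell. Smtnl2 stood at −1.07 and −0.92 in clone 2, 0.07 and −0.23 in clone 3, and 2.86 and 1.68 in control, with a log2 fold change of −2.81 (SE 0.39, limma adjusted p = 0.00817). Smtnl1 changed by −1.38 (adjusted p = 0.0314) and was not well above background in clone 2, where it was at least 4.26-fold lower than in control. After quantile normalization Smtnl2 fell (−2.50, adjusted p = 0.0137) and Smtnl1 did not pass.

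**Figure D2:**
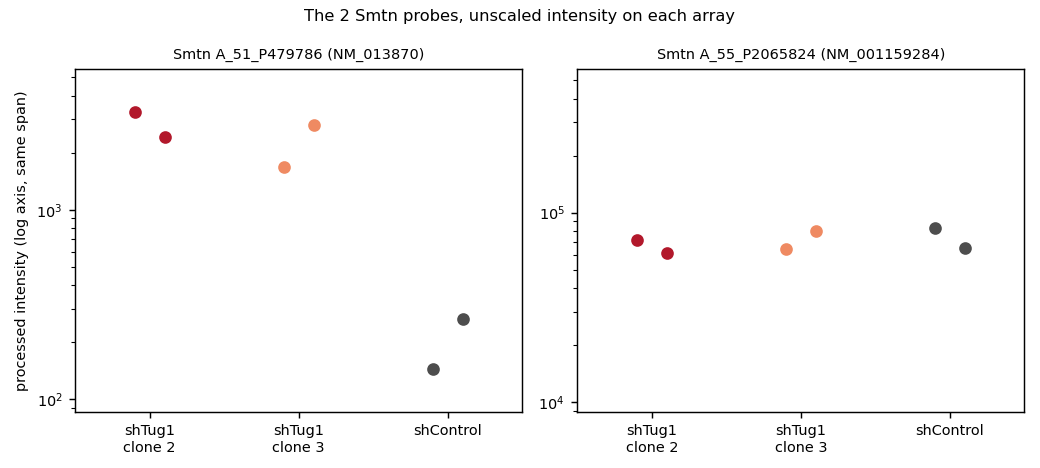
Processed intensity (log axis, not scaled between arrays) of the 2 Smtn probes on each array, with clone 2, clone 3 and control from left to right. The left probe was at 1673 to 3280 on the 4 arrays labelled shTug1 and at 145 and 264 in control, while the right probe was at 61092 to 79996 and at 83205 and 64971 in control.

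Limk2, a LIM domain kinase that phosphorylates the actin-severing protein cofilin, fell in the mean of the clones. Its level was −2.77 and −2.60 in clone 2, −1.94 and −1.79 in clone 3, and 0.18 and −1.18 in control. All arrays labelled shTug1 were below both controls, although the controls were far apart. The log2 fold change was −1.77 (SE 0.41, limma adjusted p = 0.0196) for the mean of the clones, −2.18 (adjusted p = 0.0163) for clone 2 and −1.37 (adjusted p = 0.0956) for clone 3. Before scaling, its processed intensity was 154 and 157 in clone 2, 148 and 240 in clone 3, and 367 and 160 in control, so the second control lay among the arrays labelled shTug1. In the mean comparison 2 of 6 genes of the cofilin and LIM kinase group fell, where 27.6% of all probes fell. The other 4 did not pass. The falls were the related kinase gene Limk1 (−1.70, limma adjusted p = 0.0203) and the cofilin gene Cfl1 (−1.34, adjusted p = 0.0176). The median of the 6 was −0.57, as for all probes, and after quantile normalization Limk1 fell (−1.03, adjusted p = 0.0377) and Cfl1 did not pass.

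Both neighbours that act on phosphoinositide signalling fell in the mean of the clones. Pik3ip1 encodes a transmembrane inhibitor of phosphoinositide 3-kinase (PI3K). Its level was 1.26 and 1.21 in clone 2, 1.97 and 1.93 in clone 3, and 3.55 and 2.72 in control. The groups did not overlap, and the arrays of each clone were closer to each other than the controls were. The log2 fold change was −1.54 (SE 0.33, limma adjusted p = 0.0174) for the mean of the clones, −1.90 (adjusted p = 0.0147) for clone 2 and −1.18 (adjusted p = 0.0825) for clone 3. Its processed intensity was 2528 and 2197 in clone 2, 2225 and 3177 in clone 3, and 3804 and 2390 in control. Here, too, the unscaled groups overlapped. Inpp5j encodes a phosphatase that removes the 5-phosphate of phosphoinositides. Its level was −1.67 and −1.65 in clone 2, −0.48 and −0.62 in clone 3, and 1.55 and 0.13 in control. Every array labelled shTug1 was below both controls. Before scaling, its processed intensity was 332 and 304 in clone 2, 407 and 541 in clone 3, and 949 and 398 in control. These unscaled groups overlapped. As log2 fold changes, the comparisons gave −1.94 (SE 0.42, limma adjusted p = 0.0174) for the mean of the clones, −2.50 (adjusted p = 0.0138) for clone 2, the lowest value of any neighbour, and −1.39 (adjusted p = 0.0959) for clone 3.

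Of the genes of PI3K signalling described here, the catalytic subunit gene Pik3cb rose in the mean comparison, with a log2 fold change of 1.52 (limma, adjusted p = 0.0138), where 11.8% of all probes rose. Its level was 0.70 and 0.60 in clone 2, 1.20 and 1.43 in clone 3, and −0.66 and −0.42 in control. The catalytic subunit gene Pik3ca and the regulatory subunit gene Pik3r1 were not well above background in control and were on 1 clone 3 array each, so that they entered the test only through clone 2. Pik3ca was at least 4.30-fold higher in clone 2 (limma, adjusted p = 0.00504), and for Pik3r1 no fold can be given, so that a rise is not established. After quantile normalization Pik3cb rose too (1.59, adjusted p = 0.0154).

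Pla2g3, a secreted group III phospholipase A2, was the neighbour that fell in each clone. Probe A_55_P2043033 had a level of −4.21 and −4.28 in clone 2, −3.55 and −3.69 in clone 3, and −1.50 and −2.41 in control, with no overlap. The change in log2 was −1.98 (SE 0.35, limma adjusted p = 0.0121) for the mean of the clones, −2.29 (adjusted p = 0.011) for clone 2 and −1.67 (adjusted p = 0.0451) for clone 3. It was a dim probe, with processed intensities of 56.9 and 48.9 in clone 2, 48.5 and 64.6 in clone 3, and 115 and 68.3 in control. The groups did not overlap before scaling either, but the unscaled log2 fold change of −0.71 did not pass (adjusted p = 0.182). The second Pla2g3 probe, A_55_P2043039, was never well above background and was not tested.

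The nuclear factor genes Morc2a and Patz1 gave no change that held across settings. Morc2a encodes an ATPase of the MORC family that acts in chromatin compaction with the HUSH silencing complex. Its level was 0.43 and 0.50 in clone 2, 0.53 and −0.18 in clone 3, and −0.62 and 0.31 in control. The clone 2 arrays were above both controls, and the clone 3 arrays overlapped with them. On the log2 scale the change was 0.48 for the mean of the clones (SE 0.38, 95% confidence interval −0.41 to 1.36, limma adjusted p = 0.325), 0.62 for clone 2 (adjusted p = 0.261) and 0.33 for clone 3 (adjusted p = 0.612). These intervals hold changes of either sign, so the data do not settle whether Morc2a differed. Without scaling, it passed upward at 1.75 (adjusted p = 0.00816), on arrays whose median probe was also higher, by 0.70. Against Tug1 probe A_52_P599162 on the same array, the log2 signal of Morc2a was higher by 2.29 and 2.37 in clone 2, 3.63 and 3.05 in clone 3, and 2.26 and 2.80 in control. The difference between these probes was changed by −0.19 in clone 2 and 0.82 in clone 3. In the mean comparison 1 of 6 genes of the MORC and HUSH group fell, where 27.6% of all probes fell. The other 5 did not pass. The fall was Mphosph8, a HUSH subunit that binds methylated histone H3 (−1.12, limma adjusted p = 0.0391), and it did not pass after quantile normalization, where Tasor, a HUSH scaffold gene that entered the test only through clone 2 and was not well above background in control, had a positive value past the threshold.

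Patz1 encodes a zinc finger transcription factor with a POZ domain and AT hooks. Its processed intensity was 74.2 and 98.1 in clone 2, 20.4 and 27.1 in clone 3, and 15.2 and 7.1 in control, where neither array was well above background. Clone 2 lay above both controls. Patz1 was at least 1.69-fold higher in clone 2 (limma, adjusted p = 0.0397) and at least 1.07-fold higher in the mean of the clones (adjusted p = 0.137). In clone 3 no fold can be given (adjusted p = 0.815). It entered the test through its clone arrays. Normexp background correction turned its sign, to −0.63 for the mean of the clones (adjusted p = 0.0332).

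Drg1, a GTP-binding protein of the DRG family, rose in clone 2. Its level was 1.53 and 1.93 in clone 2, −0.50 and 0.36 in clone 3, and −1.29 and 0.02 in control. Clone 2 stood above both controls and both clone 3 arrays, and clone 3 overlapped with control. Its fold change, as log2, was 2.36 for clone 2 (SE 0.53, limma adjusted p = 0.0166), 0.57 for clone 3 (adjusted p = 0.461) and 1.47 for the mean of the clones (SE 0.45, adjusted p = 0.0387). Clone 3 minus clone 2 was −1.80 (95% confidence interval −3.02 to −0.58), which did not pass after adjustment (adjusted p = 0.195). Processed intensities were 3052 and 3608 in clone 2, 403 and 1070 in clone 3, and 132 and 369 in control. The call in the mean of the clones ended in 6 settings: without shControl replicate 1, at 0.81 (adjusted p = 0.192), without shTug1 clone 2 replicate 2 (adjusted p = 0.0623), without shTug1 clone 3 replicate 1 (0.0659) or replicate 2 (0.125), after quantile normalization, at 1.69 (0.0529), and without the filter (0.0521). Related genes measured were the paralogue Drg2 and the partner genes Zc3h15 and Rwdd1, and all 3 passed upward in the mean of the clones, where 11.8% of all probes did. Zc3h15, the one measured on both control arrays, had a log2 fold change of 1.27 (limma adjusted p = 0.0413). Drg2, at 2.64 (adjusted p = 0.0136), and Rwdd1, at 3.19 (adjusted p = 0.0249), were not well above background on shControl replicate 1 and entered the test through the clones, where they are high, so the size of their changes is uncertain. In clone 3 Drg2 alone of the 3 passed (adjusted p = 0.0384), and after quantile normalization Drg2 and Zc3h15 passed in the mean of the clones.

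Of the neighbours whose proteins work at the endoplasmic reticulum, Rnf185 fell in the mean of the clones and Selenom passed, downward, in clone 2. Rnf185 encodes a membrane E3 ubiquitin ligase of protein degradation. Its level was 2.43 and 3.15 in clone 2, 3.96 and 3.67 in clone 3, and 5.12 and 4.55 in control, with no overlap. Before scaling, its processed intensity was 5664 and 8453 in clone 2, 8849 and 10563 in clone 3, and 11240.5 and 8501.5 in control. These unscaled groups overlapped. As log2 fold changes, the comparisons gave −1.53 (SE 0.35, limma adjusted p = 0.0191) for the mean of the clones, −2.04 (adjusted p = 0.0141) for clone 2 and −1.02 (adjusted p = 0.123) for clone 3. After quantile normalization it was −0.76 and did not pass (adjusted p = 0.103). Selenom encodes a selenocysteine-containing, thioredoxin-like protein. Its level was 1.67 and 1.60 in clone 2, 2.75 and 2.05 in clone 3, and 3.43 and 2.60 in control. Clone 2 lay below both controls, and a clone 3 array lay between them. The change in log2 was −1.38 for clone 2 (SE 0.43, limma adjusted p = 0.0355), −0.61 for clone 3 (adjusted p = 0.326) and −1.0 for the mean of the clones (adjusted p = 0.0637). Whether the clones differ in it was tested with clone 3 minus clone 2, which was 0.77 (95% confidence interval −0.22 to 1.76, adjusted p = 0.379).

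**Figure D3:**
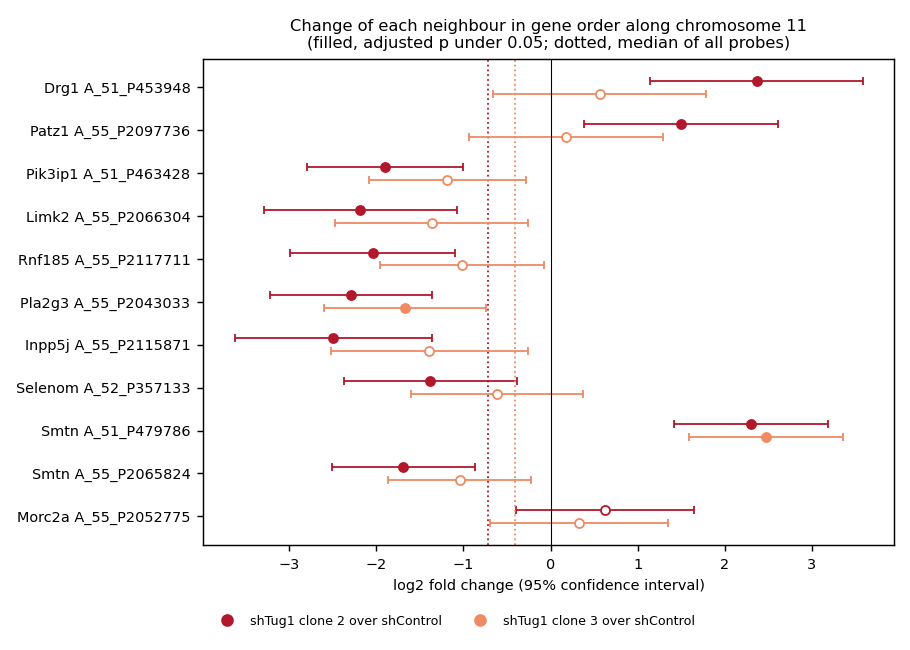
Log2 fold change of each tested neighbour probe, in gene order along chromosome 11, for clone 2 and clone 3 against control, with 95% confidence intervals from limma. Filled points have an adjusted p under 0.05 and dotted lines mark the median of all probes, −0.72 for clone 2 and −0.41 for clone 3. Clone 2 values run from −2.50 (Inpp5j) to 2.36 (Drg1), and Smtn A_51_P479786 is the only filled rise for clone 3.

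Set clone by clone, clone 2 gave more calls than clone 3, for the neighbours and for all probes. In clone 2, 3 of the 11 probes rose, where 12.4% of all probes rose, and 7 fell, where 30.9% of all fell. Among the 3 was Patz1, which was not well above background in control and entered the test only through the clones. In clone 3, 1 rose and 1 fell, where 4.78% of all probes rose and 4.21% fell. The median over the 11 probes was −1.69 in clone 2 and −1.02 in clone 3, against −0.72 and −0.41 over all probes. Both clones were set against the same 2 control arrays. Tested directly, clone 3 minus clone 2 gave 0 rises and 0 falls among the 11 (limma), where 0.384% and 1.48% of all probes passed. At an unadjusted p under 0.05 there were 3: Drg1 and Patz1, lower in clone 3, and Rnf185, higher in it, at 1.02. These 3 were named after their values were seen.

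Counted by arrays instead of by the test, 6 of the 11 probes were lower on all 4 arrays labelled shTug1 than on both controls, where 40.3% of all probes were, and 1 was higher, where 14% of all were. The 6 were Inpp5j, Limk2, Pik3ip1, Pla2g3, Rnf185 and Smtn A_55_P2065824, and the 1 was Smtn A_51_P479786. The control pair was the wider one for most neighbours. Its SD lay between 0.37 and 1.0 on the log2 scale for the 11 probes, against 0.02 to 0.52 in clone 2 and 0.02 to 0.61 in clone 3.

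How far the neighbours fell depended on how the arrays were brought to one scale. The median of the member probes was −1.37 with the 75th percentile and −0.45 after quantile normalization, while that of all probes was −0.57 and −0.18. After quantile normalization 2 rose (Smtn A_51_P479786 and Patz1) and 4 fell (Pla2g3, Inpp5j, Limk2 and Pik3ip1) in the mean of the clones. Of all probes, 13.5% rose and 13.5% fell in that setting. With no scaling, 4 rose (Smtn A_51_P479786, Drg1, Patz1 and Morc2a) and 0 fell, on arrays whose median probe was 0.70 higher. Of all probes, 32.8% rose and 0.54% fell without scaling. Patz1, counted in both settings, was not well above background in control and entered the test only through the clones. At an unadjusted p under 0.05, limma on the unscaled values also gave 4 rises and 0 falls. The share of all probes at that threshold was not counted. Smtn A_51_P479786 was the one member probe tested with an adjusted p under 0.05 in the mean comparison in every setting that tested it, with values from 2.03 to 3.66 and an adjusted p of at most 0.0472. Drg1 kept its sign in the mean of the clones in all settings that tested it, and Pla2g3, Inpp5j, Limk2, Pik3ip1, Rnf185 and Smtn A_55_P2065824 kept theirs.

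**Figure D4:**
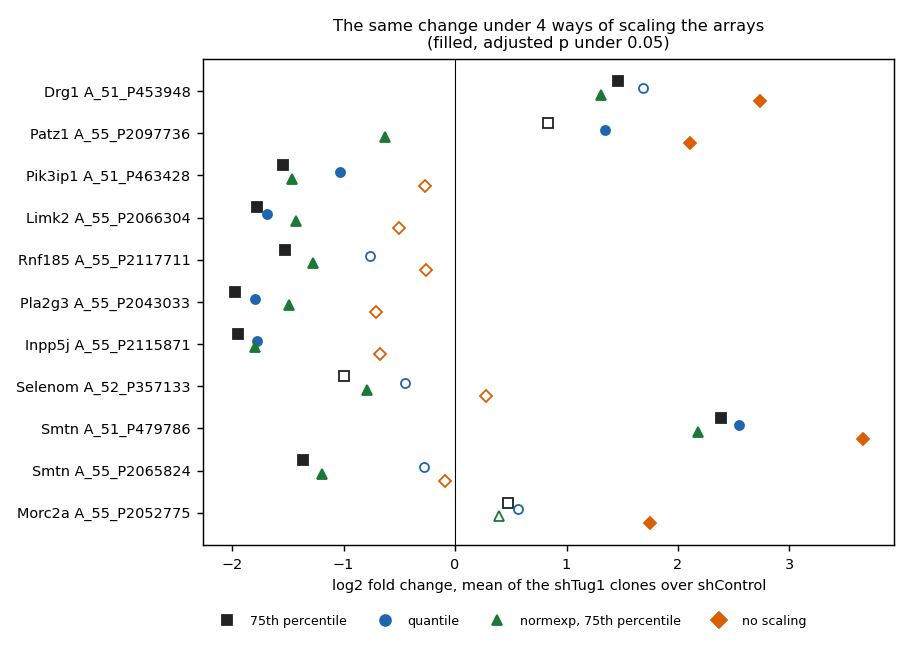
Log2 fold change of each tested neighbour probe in the mean of the shTug1 clones over control, under 4 ways of scaling. Filled points have an adjusted p under 0.05 (limma). Smtn A_51_P479786 is filled throughout, at 2.39 with the 75th percentile, 2.55 after quantile normalization and 3.66 without scaling, while Smtn A_55_P2065824 moves to −0.28 and −0.09.

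The fold change also moved with the brightness of a probe, though not steadily. All tested probes were ranked by mean level, from dim to bright, and cut into 10 bins of equal size. From bin 1 to bin 6 the median log2 fold change of the mean of the clones was −0.37, −0.59, −0.55, −0.48, −0.38 and −0.32. Bin 2 held Patz1, bin 3 Pla2g3, bin 5 Limk2 and bin 6 Inpp5j. The median was −0.29 in bin 7, which held Drg1, Morc2a and Smtn A_51_P479786. It was −0.58 in bin 8, with Pik3ip1 and Selenom, −0.86 in bin 9, with Rnf185, and −1.09 in bin 10, the brightest, with Smtn A_55_P2065824. After quantile normalization the brightest bin had a median of −0.07. Set against the median of its own bin, Smtn A_55_P2065824 at −1.37 was close to it, and Smtn A_51_P479786 at 2.39 was not. Pla2g3 at −1.98, Limk2 at −1.77 and Inpp5j at −1.94 lay farther below theirs than Smtn A_55_P2065824 did. The part of brightness in these falls was not tested.

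**Figure D5:**
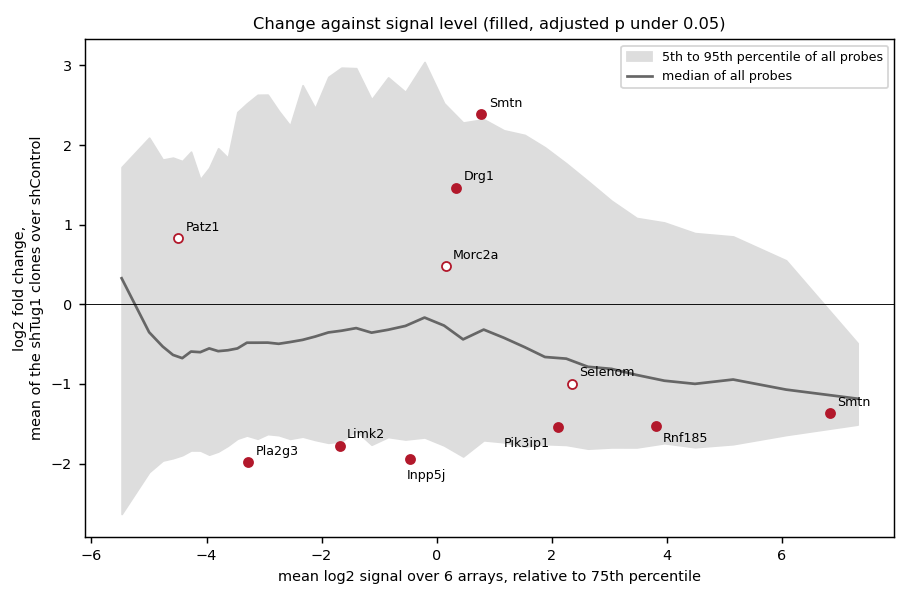
Log2 fold change of the mean of the shTug1 clones over control against mean level over the 6 arrays (log2 relative to the 75th percentile). The line and grey band are the median and the fifth to 95th percentile of all probes in 40 bins of brightness, finer than the 10 of the text. Points are neighbour probes, filled where the adjusted p is under 0.05 (limma). In the brightest of the 40 bins the median is −1.19, near Smtn A_55_P2065824 at −1.37. Smtn A_51_P479786 at 2.39 stands far above the median of its bin, −0.32.

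Other genes of the neighbourhood fell about as often as all probes did. Within 20 gene places on either side of Tug1 there were 30 other annotated genes, 11 of them with a probe and 8 of those tested. In the mean of the clones, 0 rose, where 11.8% of all probes rose, and 2 of the 8 fell, where 27.6% of all fell: Tcn2, which encodes the vitamin B12 carrier transcobalamin (−1.59, limma adjusted p = 0.0227), and Slc35e4, of a solute carrier family (−1.18, adjusted p = 0.033). Their median was −0.43, against −0.57 over all probes. In clone 2, 8430429K09Rik also fell (−1.41, adjusted p = 0.0388), named after its values were seen, and in clone 3 none of the 8 passed in limma, where 2 fell and 0 rose at an unadjusted p under 0.05. After quantile normalization Pes1, a nucleolar factor of ribosome assembly, rose in the mean of the clones (0.94, adjusted p = 0.0295), and no other of the 8 passed.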

How the data were processed

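Each of 6 RNA samples has an array, and sample titles gave the groups. The deposited scanner files give each spot's processed intensity, background-subtracted per the file headers. The submitters' processing notes name Agilent Feature Extraction, version 11.0.1.1. The deposited series table holds log2 values of 19819 probes. The sources used here do not give its normalization, and its values lay within 0.05 of quantile-normalized scanner values for 99.9% of entries.

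Control spots and outlier spots were left out, and spots were averaged per probe. Levels were log2 of the processed intensity minus the array's 75th percentile. A probe was tested if well above background on both arrays of a group (25558 probes, 14 of them lost to outlier marks). Symbols came from RefSeq by transcript accession (27234 of 39429 probes matched), and lists use each gene's brightest tested probe. For "at least" folds, a dim array took its lowest value well above background, or the probe's own value if that was higher.

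limma 3.58.1 in R 4.3.3 (with the data.table package, version 1.17.8) fitted a mean for each of the 3 groups to all 25544 probes, with 4.61 prior and 3 residual degrees of freedom. Tests were two-sided, p-values were adjusted (Benjamini-Hochberg) over all of these probes, and the threshold was 0.05. The fit was tested on simulated data. The genes named were all 10 neighbours with every probe, Tug1, up to 2 rises and 2 falls of other genes within 20 places, and partner genes past the threshold. Members and lists were chosen with earlier results of these data known. A gene of the PI3K list is not reported here, so the calls given for that list are not its full count. Alternatives were quantile normalization, normexp correction (offset 50, on the median signal, since the files hold no mean signal), no filter, a stricter filter, the series values, a single probe per gene, the replicate number as a block, each array left out and no scaling. The replicate numbers do not pair the arrays: deviations of same-numbered arrays correlated at −0.03, 0.12 and −0.09. No pair of arrays was identical. The slide as a block was not run, because each slide holds either both control arrays or all 4 arrays labelled shTug1.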

Additional observations from a re-analysis of the deposited data

Results flagged for a closer look

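Tug1 probe A_52_P599162 is listed because both clone 2 arrays lay above both control arrays and both clone 3 arrays lay below them. Clone 3 minus clone 2 was −1.30 on the log2 scale (limma, adjusted p = 0.137), which did not pass in the main setting. Under the alternatives it kept its sign, at −1.84 to −0.70, and passed in some of them. A difference between the clones does not test on which side of control each lies, so opposite directions were not shown.

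Pik3ca, a catalytic subunit gene of PI3K, passed in the test between the clones: the fitted log2 value of clone 3 minus clone 2 was −3.78 (limma, adjusted p = 0.0214). It was well above background on 1 of 2 clone 3 arrays, on 2 of 2 clone 2 arrays and on 0 of 2 control arrays. It entered the test only through clone 2, where it is high, and with a clone 3 array not well above background the size of the difference is uncertain.

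Tasor, a scaffold gene of the HUSH complex, had a fitted log2 value of −3.20 for clone 3 minus clone 2 (limma, adjusted p = 0.0156), which is set against background and is no measure of size. It was well above background in clone 2 only, through which alone it entered the test, and was at least 2.52-fold lower in clone 3. Its levels put the clones on opposite sides of control, but the clone 3 and control signals were not well above background and have no order. Tasor was chosen after its values were seen.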

How the results depend on the processing

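Of 615 values of single neighbour probes under the alternatives, 520 kept their direction and side of the threshold, 63 lost a call, 18 gained one and 14 changed sign. The count of neighbour probes that rose and fell for the mean of the clones was 2 and 6. It was 1 rise without the filter and with 1 probe per gene, where 6.7% and 10.2% of all probes rose. Without scaling, a setting added after seeing the data, it was 4 rises and 0 falls. In that setting 32.8% of all probes rose and 0.54% fell. With each array left out, the rises and falls among the neighbours changed too, and fewer of all probes passed without either clone 3 array. For clone 2 the 7 falls became 4 with quantile normalization and 0 without scaling, and 4 to 7 with each array left out (4 without shTug1 clone 2 replicate 1). Its 3 rises became 2 to 3 with each array left out. For clone 3 the 1 rise became 0 with 1 probe per gene and 0 to 1 with each array left out (0 without either clone 3 array). The 1 fall, Pla2g3, became 6 with normexp correction, 0 without the filter, 0 without scaling and 0 to 6 with each array left out. It was 6 without shControl replicate 2 and 0 without shControl replicate 1 or without any one shTug1 array. The share of all probes that fell moved too. In clone 2 it was 30.9%, against 14.4% with quantile normalization and 0.63% without scaling. In clone 3, 1076 of 25544 probes fell, against 6145 with normexp correction, 96 without scaling and 478 of 39402 without the filter. Calls over all probes also moved with each array left out, so these changes are not particular to the neighbours. With the replicate block the counts of neighbour probes were 2 and 6, 3 and 7, and 1 and 1, the same as without it. Clone 3 minus clone 2 had 0 calls in every setting run, within the slide too.

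Of all calls for the mean of the clones, 29.9% were rises, against 50.1% with quantile normalization, 14.9% with normexp correction and 98.4% without scaling (6884, 17143 and 8529 calls). With the series values 38.3% of 6226 were rises. The median of all probes was −0.57, −0.18 with quantile normalization and 0.70 without scaling.

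Signs changed as follows, and the cause was not tested. Without scaling, Selenom was 0.28 for the mean of the clones, 0.16 for clone 2 and 0.39 for clone 3, Smtn A_51_P479786 was −0.38 for clone 3 minus clone 2 and Tug1 A_52_P599162 was 0.52 for clone 3. With normexp correction, added after seeing the data, Patz1 was −0.63, −0.47 and −0.80 in the 3 comparisons with control, Tug1 A_51_P119401 was −0.0195 for the mean of the clones and −0.30 for clone 3, and Tug1 A_52_P599162 was −0.26 for the mean. For Smtn A_51_P479786, clone 3 minus clone 2 was −0.0461 with quantile normalization and −0.0465 with the series values. With each array left out, clone 3 minus control ran from −0.0914 to 1.22 for Drg1, with the sign turned without shControl replicate 1. It ran from −0.132 to 0.795 for Morc2a, turned without shControl replicate 1 and, at −0.0228, without shTug1 clone 3 replicate 1. For Patz1 it ran from −0.457 to 0.805, turned without shControl replicate 2, and for Tug1 A_51_P119401 from −0.0646 to 2.72, turned without shTug1 clone 3 replicate 2. The mean of the clones ran from −0.0286 to 0.359 for Tug1 A_52_P599162, turned without shControl replicate 1. Clone 3 minus clone 2 ran from −0.643 to 0.0656 for Morc2a, turned without shTug1 clone 3 replicate 2. Smtn A_51_P479786 kept its call in clone 3 except without clone 3 replicate 1 (adjusted p = 0.152) or 2 (0.239). Where 1 array is left in a group, it is assumed to vary like the others. Patz1 is limited by signal near background.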
